A study of Mus musculus with 2 samples.

Results

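The nucleolar ribosome biogenesis genes examined here are 45 genes whose products make, modify and assemble ribosomal RNA. They comprise *Myc*, 3 subunits of RNA polymerase I, 16 factors of the small-subunit processome, 13 factors of large-subunit assembly, 8 proteins of the small nucleolar ribonucleoproteins (snoRNPs) and 4 abundant nucleolar proteins with several roles. Each was matched by its symbol or an older name to probe sets that name exactly 1 gene. All 45 were found among the 18193 genes named in this way, and all 45 passed a signal filter that kept 10285 genes.

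RNA was measured in RAW264.7 cells, a mouse macrophage line from which osteoclasts can be grown, after transfection with scramble siRNA or with an siRNA against *Flcn*, the gene of the tumour suppressor folliculin. Both cultures were moved to MEM with 10% FCS at 24 h and harvested after another 48 h, and the labels name no other agent and no difference in genotype. Each condition is 1 Affymetrix Mouse Genome 430 2.0 array, so a difference has no replicate check and no p-value was computed. Values are the authors' linear signal intensities, whose trimmed mean, computed here, is 100 on both arrays. A ratio is the log2 of the signal with *Flcn* siRNA over that with scramble siRNA.

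The targeted gene had a signal of 208.6 with scramble siRNA and 145.4 with *Flcn* siRNA at one probe set (log2 ratio -0.52) and of 240.9 and 206.2 at another (log2 ratio -0.22), so *Flcn* siRNA gave the lower signal at both but by under 1.5-fold. *Gpnmb*, a known target of the transcription factor Tfe3, which folliculin holds out of the nucleus, stood at 294.3 and 2500 (log2 ratio 3.09). All 13 measured macrophage markers passed the signal filter, and their summed signal was 32846 with scramble siRNA and 32110 with *Flcn* siRNA, although 1 of them, *Fcgr1*, was lower by over 1.5-fold (1032.6 and 380.1). Of markers of other cell types, 0 of 7 for T cells, 0 of 5 for B cells, 1 of 7 for fibroblasts (*Col1a2*), 2 of 6 for epithelium (*Epcam* and *Krt5*) and 1 of 4 for erythroid cells (*Epor*) passed it, and the signals of these 4 genes were at most 19.9 on either array. In RNA of a whole culture, fewer cells of a kind and less RNA per cell cannot be told apart.

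Ribosomes are built in the nucleolus. RNA polymerase I transcribes a long precursor RNA, snoRNPs methylate or pseudouridylate it at sites chosen by their guide RNAs, and it is cut and folded into the 18S RNA of the small subunit and the 5.8S and 28S RNAs of the large subunit while ribosomal proteins join. The small-subunit processome forms around the U3 snoRNP on the growing transcript, and a separate series of helicases, GTPases and scaffold proteins assembles the large subunit. Myc, a transcription factor that drives cell growth, is known to raise transcription of many of these genes through the E-box CACGTG, and Tfe3 is known to bind CACGTG and CATGTG sites.

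Windows of 250 bases before and 50 bases after the gene start, taken from RefSeq on GRCm38.p6, were at hand for 38 of the 45 genes (not for *Myc*, *Fbl*, *Nol6*, *Rrp12*, *Bop1*, *Rrs1* and *Npm1*, whose promoters were not analysed here). *Nop16* and *Polr1b*, the members with the highest ratios, are shown with their whole windows of 300 bases, 5′ to 3′ on the gene's strand. Neither window holds CACGTG. Reading the 2 windows side by side showed a stretch with the letters ACTACANNTCCCA in both, which is set in capitals, also where it stands as its reverse complement.
Nop16 chr13:54590025-54590324 (-): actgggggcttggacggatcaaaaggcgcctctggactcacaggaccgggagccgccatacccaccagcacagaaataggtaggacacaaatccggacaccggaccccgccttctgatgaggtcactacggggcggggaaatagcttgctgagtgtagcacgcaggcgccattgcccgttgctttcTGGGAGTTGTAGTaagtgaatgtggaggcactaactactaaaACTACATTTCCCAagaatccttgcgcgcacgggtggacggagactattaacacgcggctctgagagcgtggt
Polr1b chr2:129100746-129101045 (+): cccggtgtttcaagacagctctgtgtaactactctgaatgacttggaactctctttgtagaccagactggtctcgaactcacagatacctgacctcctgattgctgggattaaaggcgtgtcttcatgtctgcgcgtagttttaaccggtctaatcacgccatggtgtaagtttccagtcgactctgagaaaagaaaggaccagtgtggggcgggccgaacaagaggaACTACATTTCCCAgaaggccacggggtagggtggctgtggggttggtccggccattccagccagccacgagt

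In *Polr1b* the stretch begins at position -22, where 0 is the first base after the gene start, and in *Nop16* it begins at position -22 and, reversed, at position -64. Because the letters were picked from these windows, their presence in *Nop16* and *Polr1b* is no finding. Without these genes, the same letters occurred, on either strand, in 2 of 36 members (5.56%), close to the 4.16% of 8444 genes above the signal filter beside 1.69% of all 27025 genes with a window. These members are *Nop10* (log2 ratio 0.41) and *Nop14* (log2 ratio 0.29), shown with 15 bases on either side of the match. In *Nop14* the letters occur at position -154 and, reversed, at position -102.
Nop10 chr2:112261877-112261919 (+): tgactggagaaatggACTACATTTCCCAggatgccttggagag
Nop14 chr5:34660223-34660317 (-): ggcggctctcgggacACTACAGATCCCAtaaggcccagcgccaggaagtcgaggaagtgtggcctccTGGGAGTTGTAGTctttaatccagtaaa

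CACGTG was found in the windows of 7 of 38 members (18.4%), beside 12.1% of the genes above the signal filter and 8.09% of all genes with a window. They are shown because this is the letter string that Myc and Tfe3 are known to bind, with CACGTG in capitals and up to 15 bases on either side. A match is a description of the letters and no evidence of binding.
Imp4 chr1:34439693-34439728 (+): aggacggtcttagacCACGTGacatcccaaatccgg
Nop2 chr6:125131808-125131843 (+): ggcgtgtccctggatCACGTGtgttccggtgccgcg
Pes1 chr11:3963962-3963997 (+): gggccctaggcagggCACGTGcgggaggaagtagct
Wdr43 chr17:71616217-71616252 (+): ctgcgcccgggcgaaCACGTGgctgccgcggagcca
Tsr1 chr11:74898089-74898124 (+): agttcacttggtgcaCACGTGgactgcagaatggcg
Pno1 chr11:17211540-17211567 (-): cgctgtacaaccacgCACGTGttcctct
Mybbp1a chr11:72441352-72441376 (+): actgtcttctgagccCACGTGtttg

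CATGTG, searched on both strands, was also found in 7 of 38 members (18.4%), beside 10.2% of genes above the filter and 15.9% of all genes with a window. The longer palindrome TCACGTGA, which contains CACGTG, was in 0 of 38 members, beside 2.33% and 1.12%. The 7 members with CACGTG had a median log2 ratio of 0.11, ranging from -0.01 for *Pno1* to 0.34 for *Imp4*, and 6 of them lay above 0. The 31 members whose window lacks it had a median of 0.22, and 25 of them lay above 0.

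Most of the 45 genes were a little higher with *Flcn* siRNA, and few were much higher. The ratio was above 0 for 38 of the 45 members (84.4%), beside 51.7% of the 10285 genes above the filter, when the deposited scaling or quantile normalization was used, and for 32 of 45 after median scaling, in which the signals of an array are divided by their median. Median scaling shifts every log2 ratio by -0.087, and 39.8% of all genes above the filter then lay above 0, beside 71.1% of the members. Of the 6812 genes that passed a filter at the 75th percentile of signal, 51.0% lay above 0. The median log2 ratio of the members was 0.25 (1.19-fold), with an interquartile range of 0.05 to 0.33, while the median of all genes above the filter was 0.01.

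At 1.5-fold, the size at which a gene is called here, 2 of 45 members were higher (*Nop16* and *Polr1b*), and 5.85% of all genes above the filter were, so the members' count lies near the background. No member was lower by 1.5-fold or more, beside 5.52% of all genes. At 1.3-fold, 8 of 45 members were higher, beside 13.5% of all genes. Besides the 2 called members these were *Noc4l*, *Nop56*, *Rrp12*, *Bop1*, *Nop10* and *Ddx18*. Where a gene had several probe sets, their log2 ratios differed with a median SD of 0.19 (5034 genes), which reflects the probes and stands in for no replicate. The ratio of 27 members was larger than this in size, 25 of them above 0 and 2, *Imp3* and *Ddx10*, below.

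**Figure D1:**
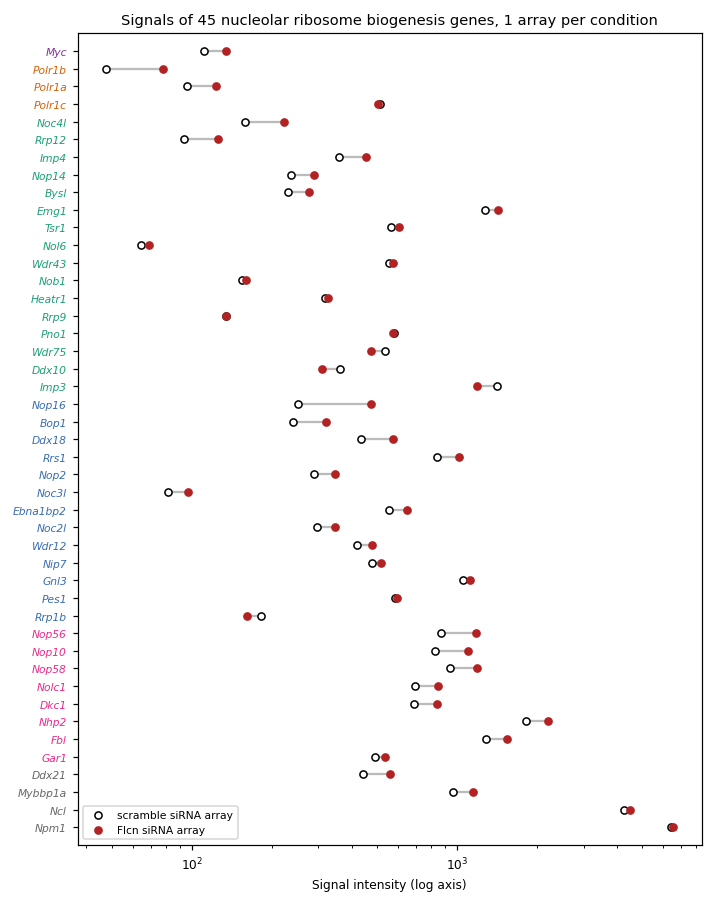
Signal intensity (log axis) of the 45 genes after scramble siRNA (open circles) and after Flcn siRNA (filled circles), 1 array per condition, with gene names coloured by group (purple Myc, orange RNA polymerase I, green small-subunit processome, blue large-subunit assembly, pink snoRNP, grey multifunctional). The filled circle lies to the right for 38 genes (32 with median scaling), and the longest shifts are those of Nop16 and Polr1b; no error bar can be drawn with 1 array.

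**Figure D2:**
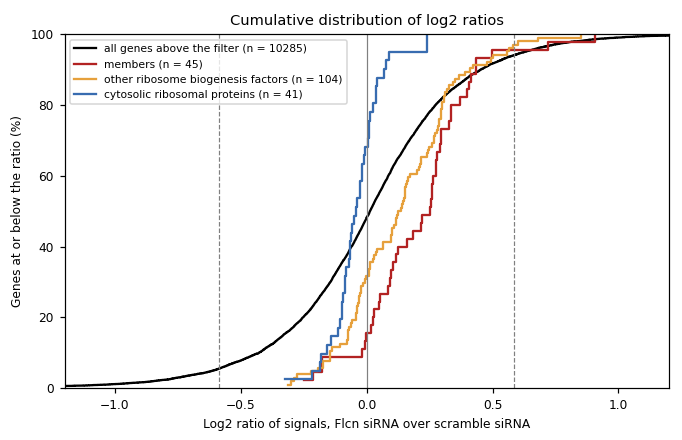
Cumulative percent of genes (vertical axis) at or below each log2 ratio (horizontal axis; Flcn siRNA over scramble siRNA) for all 10285 genes above the filter (black), the 45 members (red), 104 other ribosome biogenesis factors (orange) and 41 cytosolic ribosomal proteins (blue); dashed lines stand at 1.5-fold. With the deposited scaling, the red curve lies to the right of the black one through most of its course and the 2 come together near the upper dashed line.

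*Myc* itself had a signal of 111.1 with scramble siRNA and 134.6 with *Flcn* siRNA, a log2 ratio of 0.28 from its 1 probe set. The difference is 1.21-fold and below the size at which a gene is called.

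Of the 3 RNA polymerase I subunits, *Polr1b* was called higher and the others were not. *Polr1b*, the second largest subunit, had a signal of 47.4 with scramble siRNA and 78.0 with *Flcn* siRNA (log2 ratio 0.72, 1.65-fold), from 1 probe set above the filter. *Polr1a*, the largest subunit, stood at 95.5 and 123.5 (log2 ratio 0.37), and its other probe sets above the filter lay on both sides of 0, at 0.25 and -0.05. *Polr1c*, which RNA polymerases I and III share, stood at 511.6 and 505.0 (log2 ratio -0.02), and its other probe set also lay below 0, at -0.16. The genes thus ranged from no visible difference to the second highest ratio among the members.

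All 8 snoRNP protein genes were higher with *Flcn* siRNA, with the deposited scaling, median scaling and quantile normalization alike. With the deposited scaling their log2 ratios lay between 0.13 and 0.44, with a median of 0.29, and none reached 1.5-fold. Among the proteins of the box C/D particles, which methylate ribose, the scaffold protein gene *Nop56* had the highest ratio at the probe sets used. Its signal was 870.4 with scramble siRNA and 1176.9 with *Flcn* siRNA (0.44), but its other probe set, of similar signal, gave 0.26. Its partner *Nop58* went from 944.3 to 1184.6 (0.33). *Fbl*, which encodes the methyltransferase fibrillarin, had signals of 1286.2 and 1541.9 (0.26), and its other probe set gave 0.36.

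The proteins of the box H/ACA particles, which convert uridine to pseudouridine, had similar ratios, apart from a lower one for *Gar1*. *Dkc1*, the pseudouridine synthase dyskerin, had signals of 686.3 and 840.6 (0.29), with 0.26 and 0.37 at its other probe sets. *Nhp2* had 1812.5 and 2194.5 (0.28), and *Nop10* had 827.2 and 1096.9 (0.41) with 0.46 at a second probe set. The signals of *Gar1* were 488.2 and 532.7 (0.13), the smallest ratio in the group. *Nolc1*, a chaperone of both kinds of snoRNP, stood at 692.4 and 849.4 (0.29), while its probe sets differed, with 0.33 and -0.09 at the others.

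The factors of the small-subunit processome had the lowest median of the groups with over 1 gene, 0.07 with the deposited scaling, which turned to -0.01 with median scaling. With the deposited scaling 11 of 16 lay above 0 (8 of 16 with median scaling), and none was called at 1.5-fold. The largest differences belonged to *Noc4l*, a partner of Nop14 in the processome, with signals of 158.0 and 223.1 (log2 ratio 0.50), and all 4 of its probe sets lay above 0. *Rrp12*, needed for maturation and export of the pre-40S particle, stood at 93.0 and 125.7 (0.43). *Nop14* had signals of 235.8 and 289.0 (0.29). *Emg1*, a methyltransferase that acts with these proteins on 18S RNA, had 1271.8 and 1421.8 (0.16).

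*Imp3* and *Imp4*, whose products sit together on the U3 snoRNP, went in opposite directions. *Imp3* had 1413.9 with scramble siRNA and 1188.9 with *Flcn* siRNA (-0.25), the lowest ratio of the 45 genes, from 1 probe set. *Imp4* had 359.5 and 453.8 (0.34), and its other probe sets lay between 0.01 and 0.15. *Rrp9*, a protein of the U3 snoRNP itself, had the same signal within 0.1 units on both arrays, 134.8 and 134.7.

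Of the complex that joins the transcript first, the subunits among the 45 genes lay close to 0 or below it at the probe sets used. *Heatr1* had 318.2 and 324.7 (0.03), *Wdr43* 551.3 and 572.0 (0.05) and *Wdr75* 532.9 and 471.8 (-0.18). A second probe set gave 0.21 for *Wdr43* (250.9 and 290.0) and 0.08 for *Wdr75*. Subunits of this complex outside the 45 genes varied. *Utp4* had 375.2 and 528.5 (0.49) and *Utp15* 147.5 and 218.1 (0.56), but *Nol11* had 384.1 and 394.3 (0.04). *Heatr1* also has a dim probe set with signals of 9.0, under the median of its array, and 24.6 (0.94). *Ddx10*, an RNA helicase, had 360.3 and 310.6 (-0.21), but 0.11 at its other probe set. *Nol6*, a scaffold protein, stood at 64.5 and 68.9 (0.10), with -0.08 at another probe set.

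Of the members that act late, on the pre-40S particle, most had small ratios apart from *Bysl* and *Rrp12*. *Nob1*, the endonuclease that makes the final cut at the end of 18S RNA, had 153.8 and 159.3 (0.05, below 0 with median scaling), and its partner *Pno1* had 575.8 and 572.8 (-0.01). *Tsr1* had 563.6 and 606.4 (0.11). *Bysl* was higher, with 230.3 and 275.3 (0.26) and 0.24 at a second probe set.

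Among the 13 factors of large-subunit assembly 12 lay above 0 (11 with median scaling), with a median of 0.22. *Nop16*, a protein of early pre-60S particles and a known Myc target, had the highest ratio of all 45 genes, with a signal of 252.2 with scramble siRNA and 473.2 with *Flcn* siRNA (log2 ratio 0.91, 1.88-fold), higher than 98.7% of genes above the filter. This rests on 1 probe set, since both signals of the other, 2.5 and 10.2, lie under the array medians. Without *Nop16*, no gene of large-subunit assembly passed 1.5-fold. *Ddx18*, an RNA helicase, followed *Bop1* with 433.2 and 570.9 (0.40), and 0.35 at its other bright probe set.

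Pes1, Bop1 and Wdr12 form 1 complex, yet the ratios of their genes differed. *Bop1* had 240.7 and 320.7 (0.41), while its dimmer probe set, with 49.3 and 27.6, lay at -0.84, the lowest value among the 86 probe sets of members above the filter. *Wdr12* had 419.5 and 477.2 (0.19), with 0.47 at a dimmer probe set. *Pes1* had 584.7 and 591.3 (0.02, below 0 with median scaling). The genes of the Noc2l and Noc3l pair had like ratios at the probe sets used, *Noc2l* with 296.7 and 344.9 (0.22) and *Noc3l* with 81.4 and 97.0 (0.25). Their other probe sets were less alike, with 0.06 for *Noc2l* and 0.24 for *Noc3l*.

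The remaining large-subunit factors lay between -0.18 and 0.28. *Rrs1*, which helps to bring in the 5S RNA particle, had 837.4 and 1017.5 (0.28) and 0.29 at a second probe set. *Nop2*, a methyltransferase of 28S RNA, had 289.5 and 346.6 (0.26). *Ebna1bp2* had 553.7 and 645.4 (0.22), with -0.24 at a dim probe set. *Nip7* had 476.9 and 517.4 (0.12) and the GTPase gene *Gnl3* (nucleostemin) 1050.1 and 1119.2 (0.09), both small beside the spread between probe sets. *Rrp1b* was the member of this group below 0, with 182.2 and 161.0 (-0.18), but its other probe sets of similar signal lay at 0.18 and 0.15.

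The 4 abundant nucleolar proteins split by gene. *Ddx21*, a helicase that acts in RNA polymerase I transcription and rRNA processing, had signals of 441.0 and 556.5 (0.34), though a second probe set gave 0.02. *Mybbp1a*, which binds Myb and p53, had 963.0 and 1152.3 (0.26) with 0.35 at a second probe set. *Ncl* (nucleolin) had 4246.6 and 4502.3 (0.08) and *Npm1* (nucleophosmin), a chaperone and shuttling protein, 6435.6 and 6549.1 (0.03). The ratios of *Ncl* and *Npm1* lay below 0 with median scaling.

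**Figure D3:**
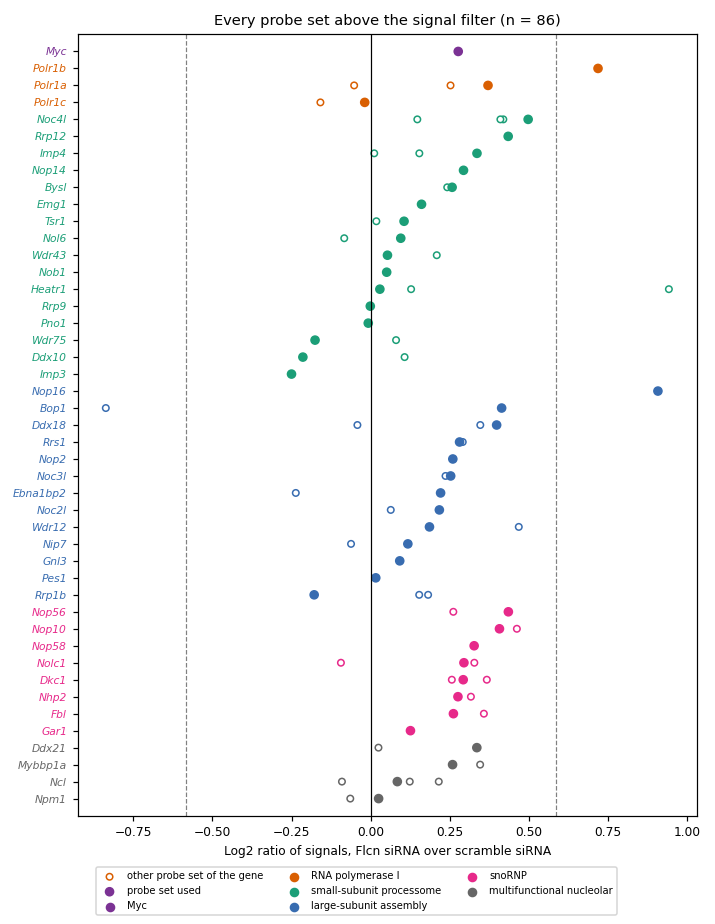
Log2 ratio (horizontal axis; Flcn siRNA over scramble siRNA) at each of the 86 probe sets of members above the filter, 1 row per gene; filled points mark the probe set used for the gene, open points the others, and dashed lines 1.5-fold. With the deposited scaling 69 of 86 points lie above 0, the snoRNP genes (pink) cluster between 0.13 and 0.46 apart from 1 probe set of Nolc1, and Bop1 and Heatr1 have a probe set far from the rest.

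Probe sets of the same gene gave a check within each array. Of 86 probe sets of members above the filter, 69 lay above 0. Of the 30 members with at least 2 such probe sets, 17 had all of them above 0, 1 (*Polr1c*) had all below 0, and 12 had them on both sides (*Polr1a*, *Nolc1*, *Ddx10*, *Wdr75*, *Nol6*, *Ddx18*, *Bop1*, *Rrp1b*, *Ebna1bp2*, *Nip7*, *Ncl* and *Npm1*). The other 15 members, both called ones included, rest on 1 probe set. Division by the array median lowers every ratio by the same amount, so it turned the 6 members with the smallest ratios above 0 (*Heatr1*, *Wdr43*, *Nob1*, *Pes1*, *Ncl* and *Npm1*) from above to below 0, whereas quantile normalization turned none.

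The median of the snoRNP genes exceeded that of the small-subunit processome by 0.22 (0.21 to 0.25 over 9 other ways of processing). The median of the small-subunit processome lay 0.15 below that of large-subunit assembly, a gap that shrank to 0.04 when the mean of all probe sets was taken. With 1 array per condition neither difference could be tested.

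Other factors of the same pathway, 106 genes outside the 45, showed a smaller shift. Of 104 that passed the filter, 71 (68.3%) lay above 0 with the deposited scaling and 61 with median scaling, with a median log2 ratio of 0.13. Called higher were 3 of 104 and called lower 0, beside 5.85% and 5.52% of all genes. The called genes were *Dhx37*, a helicase of the small-subunit processome, with signals of 11.9 and 19.4 (at least 1.52-fold higher with the deposited scaling), *Ddx55*, a helicase of large-subunit assembly, with 57.9 and 104.5 (1.80-fold), and *Ruvbl2*, an ATPase that helps to assemble snoRNPs, with 421.1 and 674.2 (1.60-fold). The ratio of *Dhx37* fell below 1.5-fold with median scaling (log2 ratio 0.51) and quantile normalization (0.53). By step, 27 of 37 other small-subunit factors lay above 0 (median 0.14), 30 of 44 large-subunit factors (0.12) and 8 of 11 snoRNP factors (0.31). The snoRNP median was 0.23 over 10 genes with a signal filter at the 75th percentile. With median scaling the counts above 0 were 23, 27 and 7 in the same order, and the medians 0.05, 0.04 and 0.22. The lower median of the small-subunit processome beside large-subunit assembly, seen among the members, was thus not repeated among these factors.

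Of the other factors of RNA polymerase I transcription 6 of 12 lay above 0 and none was called. Their median of -0.01 depended on the choice of probe sets, with 0.13 when probe sets were averaged and 0.20 over 8 genes with probe sets unique to 1 transcript. *Rrn3*, which brings the polymerase to its promoter, had a ratio of 0.30, *Ubtf*, the upstream binding factor, 0.27 and *Taf1c*, a subunit of the selectivity factor, -0.29.

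The RNA exosome, which trims the 3′ end of the 5.8S precursor, had values close to the members', with 12 of 13 genes above 0 (9 with median scaling) and a median of 0.24. Its cap subunit gene *Exosc2* was called higher, with 131.4 and 227.9 (1.73-fold). The genes of the proteins that these factors place into the ribosome did not show the shift in these signals. Of 41 cytosolic ribosomal protein genes above the filter, 13 lay above 0 (18 with quantile normalization and 3 with median scaling), with a median of -0.04, and none was called. Of the 76 such genes listed, 42 were measured by a probe set that names 1 gene. The signals of the 41 ranged from 70.4 and 60.6 for *Rps27* to 8030.5 and 8238.1 for *Rps29*. The brightest members, *Npm1* and *Ncl*, also had small ratios (0.03 and 0.08). Whether such bright probe sets can register a shift of this size was not tested.

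Known Myc targets outside the nucleolus lay mostly above 0, 17 of 19 (13 with median scaling), with a median of 0.16, and none was called. *Cad*, the enzyme that starts pyrimidine synthesis, had a ratio of 0.46, *Nme1*, a nucleoside diphosphate kinase, 0.41, and *Srm*, spermidine synthase, -0.15. Genes of the Myc network, the Myc relative *Mycn* among them, had a median of 0.01 (-0.07 with median scaling), with 8 of 14 above 0. One of them, *Mxd4*, which competes with Myc for its partner Max, was called lower with 167.4 and 106.0 (-0.66), while its other probe set gave 0.04. *Mycn* had far brighter signals than *Myc* (111.1 and 134.6), with 6780.6 and 6529.6 (-0.05), and its probe sets ranged from -0.32 to 0.19. The signals of *Mycn* and *Myc* come from different probe sets, so they do not compare the transcript levels of these genes.

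**Figure D4:**
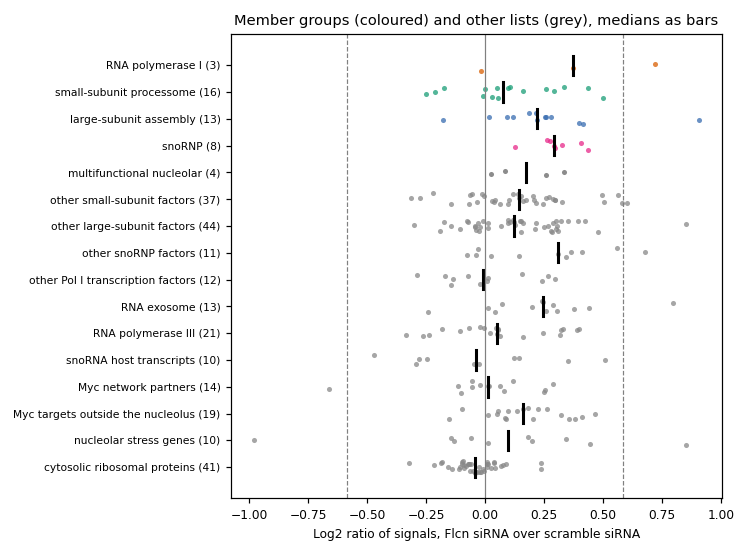
Log2 ratio (horizontal axis; Flcn siRNA over scramble siRNA) for the genes above the filter in each group of members (coloured) and in each other list (grey), with the number of genes in brackets, a black bar at the median and dashed lines at 1.5-fold. With the deposited scaling the medians of the snoRNP members (0.29), other snoRNP factors (0.31) and exosome (0.24) lie to the right, and those of the other RNA polymerase I factors (-0.01, above 0 when probe sets are averaged) and cytosolic ribosomal proteins (-0.04) lie at or left of 0.

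**Figure D5:**
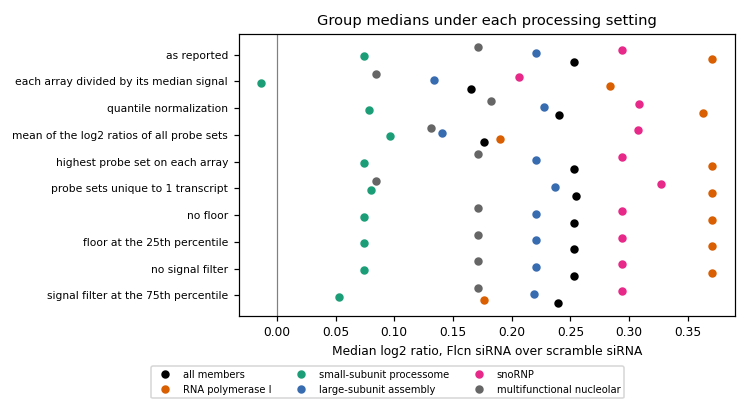
Median log2 ratio (horizontal axis; Flcn siRNA over scramble siRNA) of all members (black) and of each group (coloured) under the processing used and 9 alternatives (rows). The snoRNP median stays between 0.21 and 0.33 and the small-subunit processome median between -0.01 and 0.10, crossing 0 with median scaling.

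Control probe sets for 18S rRNA had signals of 774.6 and 667.0, of 2304.4 and 2008.8, and of 3342.8 and 3453.7, with log2 ratios of -0.22, -0.20 and 0.05. How the cDNA was primed is not given in the sources used here, so these signals are not read as a level of ribosomal RNA.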

How the data were processed

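RNA of RAW264.7 cells under 2 conditions was used, 1 array each. The deposited values are linear signal intensities, 1 per probe set and array, which the authors made with GCOS (scaling settings not given in the sources used). In the table of 45101 probe sets (64 controls), the mean without the lowest and highest 2% is 100 on both arrays. The platform annotation names 1 gene for 34958 probe sets and several for 932, and leaves 9211 unlisted; symbols were updated through the RefSeq table (34754 matched). Control, unlisted and several-gene probe sets were left out. A gene was represented by the probe set of highest geometric mean signal. Any signal below its array's median (12.8 and 13.6) was set to that median, and a geometric mean of at least 13.2 was required (the signal filter). Genes were called at 1.5-fold by size alone. The number of arrays limits the precision, and no test was possible.

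The members and lists were chosen with earlier results of these data known. All 45 members are named, and of other lists the genes past 1.5-fold; further genes of those lists, and the subgroups within a step of assembly, were chosen after their values were seen. Results were recomputed after quantile normalization and median scaling, with probe sets averaged, chosen per array or restricted to those unique to 1 transcript, without the floor or with one at the 25th percentile, without the signal filter or with one at the 75th percentile, and with calls at 1.3-fold and 2-fold. A shift of a gene's log2 ratio counted if it exceeded the typical SD among probe sets, and a shift of a group's median if it exceeded that SD divided by the square root of the number of genes. Functions were tested on simulated data. Protein features were not analysed here. Software was Python 3.11.15 with pandas 2.3.3, numpy 2.4.6, matplotlib 3.10.9 and scipy 1.17.1.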

Additional observations from a re-analysis of the deposited data

How the results depend on the processing

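When both arrays were scaled to their median signal, which lowers every log2 ratio by the same amount, the median fell to 0.17 over all members, 0.13 for large-subunit assembly and 0.21 for the snoRNP genes, it turned to -0.013 for the small-subunit processome, and 71.1% of members lay above 0. With the mean of all probe sets, the median was 0.18 over all members, 0.19 for RNA polymerase I and 0.14 for large-subunit assembly, and the small-subunit processome differed from large-subunit assembly by -0.044. A signal filter at the 75th percentile left 42 members, 1 of them called, and an RNA polymerase I median of 0.18 over 2 genes, since *Polr1b* fell below the filter. Calls numbered 8 at 1.3-fold and 0 at 2-fold. The causes were not tested beyond these constructions.

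Of 397 values of single members under an alternative, 391 stayed within the median SD between probe sets of the value reported. The 6 others were *Heatr1* (0.37), *Bop1* (-0.21), *Rrp1b* (0.05) and *Ebna1bp2* (-0.01) when probe sets were averaged, and *Wdr75* (0.08) and *Ddx21* (0.02) with probe sets unique to 1 transcript. Neither called member reversed under any alternative run.

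With 1 siRNA sequence and 1 array per condition, a difference between the conditions cannot be told apart from one between the cultures or arrays. No paired analysis was possible because each condition has 1 array and the labels give no replicate number. Signals near the array median, such as those of the dim probe sets of *Heatr1* and *Ebna1bp2*, carry little precision.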

Other observations

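Neighbouring programmes of RNA synthesis and nucleolar stress had medians between -0.04 and 0.10 with the deposited scaling. Subunits and factors of RNA polymerase III, which makes 5S and transfer RNA, lay above 0 for 13 of 21 genes, with a median log2 ratio of 0.05 (-0.04 with median scaling), and none was called. Of 10 host transcripts of small nucleolar RNAs 4 lay above 0, with a median of -0.04. The hosts ranged from *Snhg6* (-0.47) and *Gas5* (-0.29) to *Snhg17* (0.51, signals of 58.3 and 83.0). Probe sets of *Gas5* ran from -0.37 to 0.16 and those of *Snhg1* from -0.04 to 0.55. By their median, the hosts did not share the shift of the snoRNP protein genes.

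Of 15 listed genes known from nucleolar stress and the p53 response, 11 were measured and 10 passed the filter. Of these 10, 6 lay above 0 (5 with median scaling), with a median of 0.10. *Phlda3*, a p53 target that restrains Akt, was called higher with signals of 57.9 and 104.5, and *Gadd45a*, a growth arrest gene, was called lower with 177.4 and 89.9 (-0.98).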
